A study of Oryza sativa with 58 samples.

Results

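The 200 genes described here are root-enriched genes shared by 3 rice varieties, MH63, ZS97 and Nip. For every gene, the FPKM (mapped fragments scaled to gene length and library size) was averaged over the 2 libraries of each variety and tissue, and a score was computed for each variety as log2(root + 1) minus the highest log2(mean + 1) among young leaf, panicle and mature leaf. The 200 genes with the highest minimum score over the 3 varieties were taken from 57174 listed genes. Of these, 16207 genes had a mean above 1 FPKM in root of all 3 varieties. The members were thus chosen by their root FPKM relative to the other 3 tissues, and that contrast is given as a description with no test.

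The study profiled 20 rice varieties, and its RNA-Seq part comprises 58 libraries, 2 per condition. The 24 libraries used here cover 4 tissues of MH63 (genotype label Minghui 63), ZS97 (ZhenShan97) and Nip (given in the labels as Nipponare). Roots came from 1-week-old seedlings grown on moist filter paper and young leaves from 2-week-old seedlings in hydroponic culture, both kept in a phytotron, whereas panicles of 1.5 to 4.5 cm and mature leaves came from field plants at floral induction. Tissue therefore cannot be told apart from age and growth place. The other 34 libraries are young leaves of 17 varieties, list other gene identifiers and were not used here. The labels name 2 replicates of each group without saying that they came from separate plants, so p-values measure the spread between these libraries only.

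Roots take up water and mineral ions from the soil, hold them in by the barriers of the endodermis and pass them to the shoot through the xylem. Genes expressed almost only in roots commonly encode ion transporters, peroxidases and other wall enzymes, and proteins of root hairs and root defence. MH63 and ZS97 are *indica* varieties, and Nip is the *japonica* variety behind the first rice reference genome. The deposited files list genes by MH63 identifiers without names. None of the 200 identifiers was found in the RefSeq gene table used here (39387 entries), so no symbol, function or sequence is given for a member and the tissue labels could not be checked with marker genes. A whole organ was sampled, so more cells of a type and more RNA per cell cannot be told apart in any level below.

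The libraries were compared by correlation, since markers could not be used. Without the members, each of the 24 libraries had its highest correlation across genes with a library of its own tissue. The other replicate of the group alone can bring this about. Across varieties too, the correlation was at least 0.9079 between libraries of 1 tissue and at most 0.8910 between tissues. This groups the libraries by tissue label but cannot show that the tissue names are right. The depth of a library relative to MH63 root replicate 1, estimated from the steps between low values, was 0.667 to 1.38 in root, 0.129 to 1.2 in panicle, 0.229 to 0.519 in mature leaf and 0.17 to 0.793 in young leaf. Low values outside root were thus measured less precisely than root values in most libraries, and the number of reads behind a value is unknown. The FPKM of a library summed to between 586358 and 627441 in root and up to 1512110 in mature leaf. A gene is called listed at 0 where its FPKM is 0, which does not show that it is silent.

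The members showed a wide gap between root and every other tissue. Their median FPKM in root was 44.3 in Nip, 33.9 in ZS97 and 37.0 in MH63, whereas the median in young leaf was 0.113 in Nip, 0.0697 in ZS97 and 0.0950 in MH63. In panicle, the medians were 0.0777, 0 and 0.0196 FPKM in Nip, ZS97 and MH63, and in mature leaf 0.0373, 0 and 0 FPKM in the same order. All 200 members had a higher FPKM in their lowest root library than in the highest of the 18 other libraries, which follows closely from how they were chosen. The narrowest margin was 1.21-fold, for MH09g0388900. Together, the members held 3.16% to 4.15% of the summed FPKM of a root library and 0.00512% to 0.0326% of that of any other library.

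**Figure D1:**
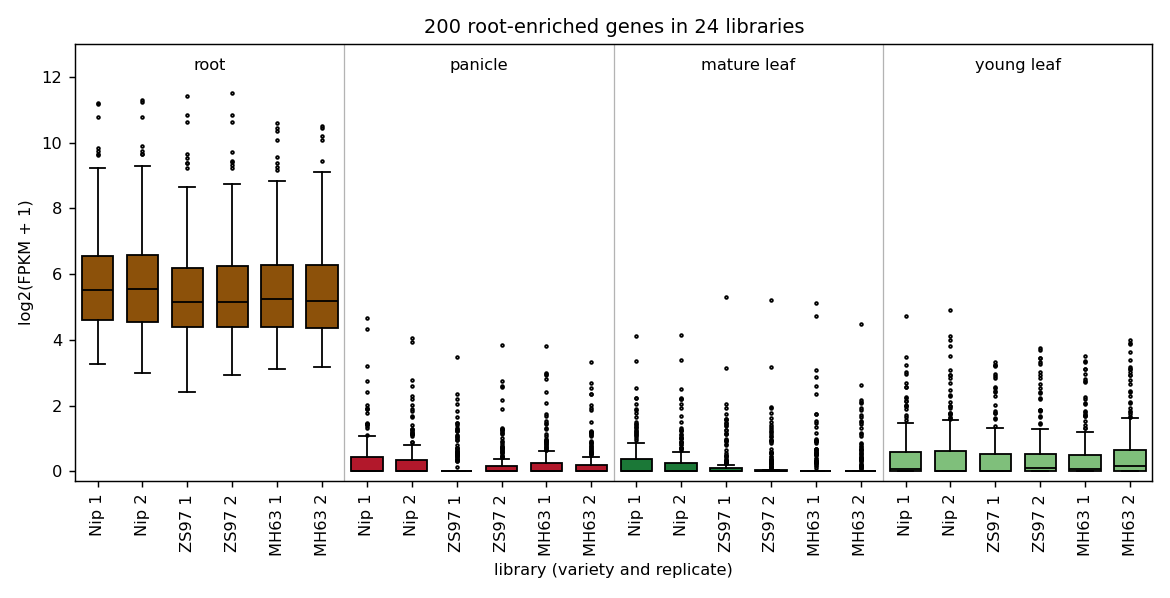
The 200 members in the 24 libraries, with log2(FPKM + 1) on the vertical axis and libraries by tissue, variety and replicate on the horizontal axis. Boxes show the quartiles and the median, whiskers reach 1.5 times the box height and points are genes beyond them. The 6 root boxes lie above all others, and the lowest member value in a root library was 4.27 FPKM.

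The minimum score ranged between 3.07 and 10.15 with a median of 3.85. Scores above 5 were reached by 42 genes and above 7 by 12 genes. The lowest score of a member came from MH63 in 78 members, from Nip in 62 and from ZS97 in 60, so that each variety set the limit for part of the list. When the scores were ranked in each variety alone, 91 genes were among the 200 highest of all 3 varieties. All 91 were members, which follows from the rule.

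The edge of the list was not a gap. MH01g0087900, MH04g0582000 and MH06g0581300, the last 3 members, had minimum scores of 3.09, 3.09 and 3.07. The first 3 genes left out, MH10g0176300, MH02g0386100 and MH01g0744300, had 3.05, 3.05 and 3.05. MH06g0581300 had 10.8 and 6.89 FPKM in Nip root, 11.4 and 12.9 FPKM in ZS97 root and 11.9 and 12.4 FPKM in MH63 root, and at most 0.351 FPKM in any other library. MH02g0386100 had higher root values in Nip, with 33.5 and 33.7 FPKM, and in ZS97, with 20.5 and 20.7 FPKM, but lower ones in MH63, with 10.2 and 10.3 FPKM. Its lowest score was that of MH63, the variety with its lowest root level.

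The 12 members with the highest minimum scores lay between 142 and 2884 FPKM in every root library and at or below 5.47 FPKM in every other library. For 7 of them, no other library was above 1 FPKM, and 8 of the 12 were also among the 12 members with the highest mean root level. MH02g0521200 ranked first. It had 2288 and 2417 FPKM in Nip root, 1842 and 1820 FPKM in ZS97 root and 1553 and 1393 FPKM in MH63 root. Outside root, it was listed at 0 in 11 of 18 libraries, and its highest value was 0.915 FPKM in Nip mature leaf replicate 1. The root values of the 3 varieties did not overlap, but the highest mean was only 1.60 times the lowest.

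MH03g0195800, at rank 2, differed more between varieties. It had 2358 and 2519 FPKM in Nip root, 2739 and 2884 FPKM in ZS97 root and 575 and 518 FPKM in MH63 root. MH63 was the lowest variety, and the mean of ZS97 was 5.14 times that of MH63. MH12g0394200 followed with 577 and 602 FPKM in Nip root, 1567 and 1574 FPKM in ZS97 root and 1069 and 1071 FPKM in MH63 root, here with Nip as the lowest variety. MH12g0394200 was listed at 0 in 15 of the 18 other libraries, and the 3 exceptions were all Nip libraries. MH10g0117900, at rank 4, stayed closer between varieties, with 600 and 620 FPKM in Nip root, 811 and 845 FPKM in ZS97 root and 668 and 549 FPKM in MH63 root.

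MH09g0471300 and MH03g0010500 held ranks 5 and 6. MH09g0471300 had 336 and 317 FPKM in Nip root, 663 and 640 FPKM in ZS97 root and 450 and 389 FPKM in MH63 root, and was listed at 0 in 16 of 18 other libraries. MH03g0010500 had 798 and 803 FPKM in Nip root, 662 and 688 FPKM in ZS97 root and 1294 and 1166 FPKM in MH63 root. It was listed at 0 in all young leaf, panicle and MH63 mature leaf libraries. The exceptions were mature leaf, with 3.73 and 0 FPKM in Nip and 1.62 and 2.43 FPKM in ZS97. The order of the varieties thus differed among the leading genes, and no variety was highest throughout.

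**Figure D2:**
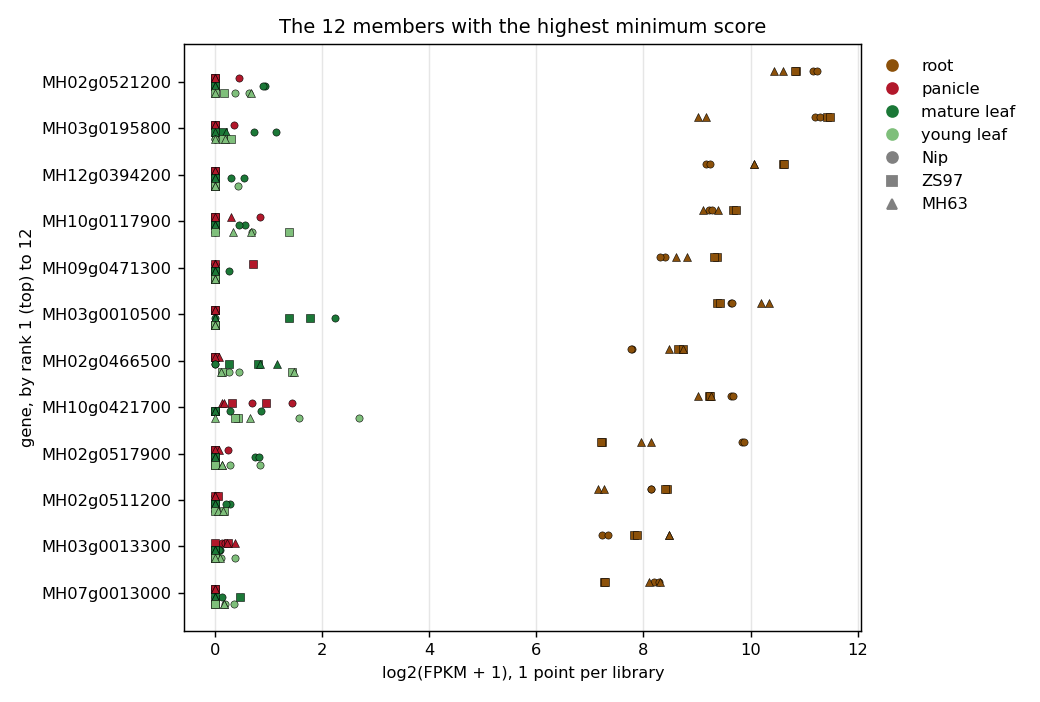
The 12 members with the highest minimum score, rank 1 at the top, with log2(FPKM + 1) on the horizontal axis and 1 point per library. Colors mark the tissue and symbols the variety. Root points of the 12 genes lie between 142 and 2884 FPKM and all other points at or below 5.47 FPKM.

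Among all members, the mean over the 6 root libraries ranged between 10.9 and 1932 FPKM with a median of 41.5 FPKM, against a median of 13.4 FPKM for all genes above 1 FPKM in root of the 3 varieties. The median member stood at percentile 82.1 of those genes. A pseudocount of 1 in the score favours genes with a high root level, so this position partly follows from the rule. A mean above 100 FPKM was reached by 41 members and above 500 FPKM by 7. The sum was carried by few genes, as the 10 highest members held 46.8% of the member total in Nip root, 49.8% in ZS97 root and 43.8% in MH63 root.

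Root replicates were close for the members. The median absolute log2 difference between the 2 root libraries was 0.0717 in Nip, 0.0800 in ZS97 and 0.149 in MH63, against 0.102, 0.0911 and 0.156 for all genes above 1 FPKM in root. Replicates differed over 2-fold in 2 members in ZS97, in 2 members in MH63 and in 0 members in Nip. MH63 root replicates were thus the least close of the 3 groups, for members and for other genes.

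The root level of many members differed between varieties. The highest variety mean was at the median 2.01 times the lowest among members and 1.50 times the lowest among all genes above 1 FPKM in root. It was over 4 times the lowest in 28 members (14.0%), against 6.0% of those genes, and under 1.5 times in 46 members. MH11g0547900 was the most even, with 119 and 124 FPKM in Nip root, 112 and 121 FPKM in ZS97 root and 104.6 and 138.9 FPKM in MH63 root. MH02g0088500 was the least even, with 246 and 239 FPKM in Nip root, 32.7 and 34.6 FPKM in ZS97 root and 19.9 and 20.9 FPKM in MH63 root. These folds over all 3 varieties were not tested.

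The value columns of the ZS97 and MH63 root files belong to 1 numbering and those of Nip to another. This was taken to mean 2 separate quantifications, which no label states, so only ZS97 and MH63 were compared by a test in root. Of the 200 members, 13 (6.5%) differed in root between ZS97 and MH63, with 7 higher and 6 lower in ZS97. A gene was called where limma on log2(FPKM + 1) gave a Benjamini-Hochberg adjusted p under 0.05 and a log2 fold change beyond 1.5 in either direction. Over all 23841 tested genes, percent called was 3.33% (1.02% higher and 2.3% lower in ZS97). The median log2 fold change was -0.03 over members and -0.0059 over all tested genes, and 93 members had a positive and 107 a negative fold change. At an unadjusted p below 0.05, 96 members (48%) differed, against 16.9% of all tested genes. The members were more highly expressed in root than most of these genes, and the part of this in the share was not tested. The fit also shares its spread with young leaf and panicle, where the rule held the members low. The part of this in the shares of members was not tested either. With a pseudocount of 0.1, 10 members were called, beside 5.5% of all tested genes.

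The largest increase in ZS97 root was that of MH03g0195800, given above, at a log2 fold change of 2.36 ± 0.14 (SE, limma adjusted p = 1.49e-05). MH12g0396800 had 104 and 92.7 FPKM in ZS97 root, against 17.6 and 20.0 FPKM in MH63 root (2.33 ± 0.18, limma adjusted p = 8.24e-05). Nip root lay between them at 43.6 and 41.1 FPKM. MH12g0182200 had 47.3 and 48.2 FPKM in ZS97 root, against 10.4 and 8.75 FPKM in MH63 root (2.21 ± 0.15, limma adjusted p = 3.04e-05). Here, Nip root was the highest of the 3 varieties at 76.8 and 81.7 FPKM. The other 4 increases were between 1.67 and 2.04 on the log2 scale.

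Among the members that were lower in ZS97 root, MH07g0030800 is one of the most highly expressed members. It had 150 and 144 FPKM in ZS97 root, against 1398 and 1467 FPKM in MH63 root (-3.28 ± 0.63, limma adjusted p = 0.0142). Nip root, at 1739 and 1742 FPKM, was near MH63. The ZS97 and MH63 libraries did not overlap, but the call was lost with a pseudocount of 0.1 (adjusted p = 0.146) and without any 1 of the 4 root libraries (adjusted p between 0.0937 and 0.0985). The fit shares its spread with the young leaf and panicle libraries, and MH63 young leaf had 0.211 and 5.84 FPKM of this gene. With the 4 root libraries alone, the limma adjusted p was 0.000136.

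MH02g0168900 had 22.7 and 17.03 FPKM in ZS97 root, against 136.2 and 127.6 FPKM in MH63 root (-2.68 ± 0.21, limma adjusted p = 8.79e-05), with Nip root between them at 49.7 and 45.8 FPKM. MH02g0037400 had 18.5 and 17.3 FPKM in ZS97 root, against 106 and 109 FPKM in MH63 root (-2.52 ± 0.14, limma adjusted p = 1.34e-05), and Nip root was above both at 142 and 143 FPKM. The other 3 decreases were between -1.58 and -2.28. The libraries of ZS97 and MH63 did not overlap in any of the 13 called members. This follows closely from the cutoffs with 2 libraries of each variety, so it adds nothing to the calls.

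**Figure D3:**
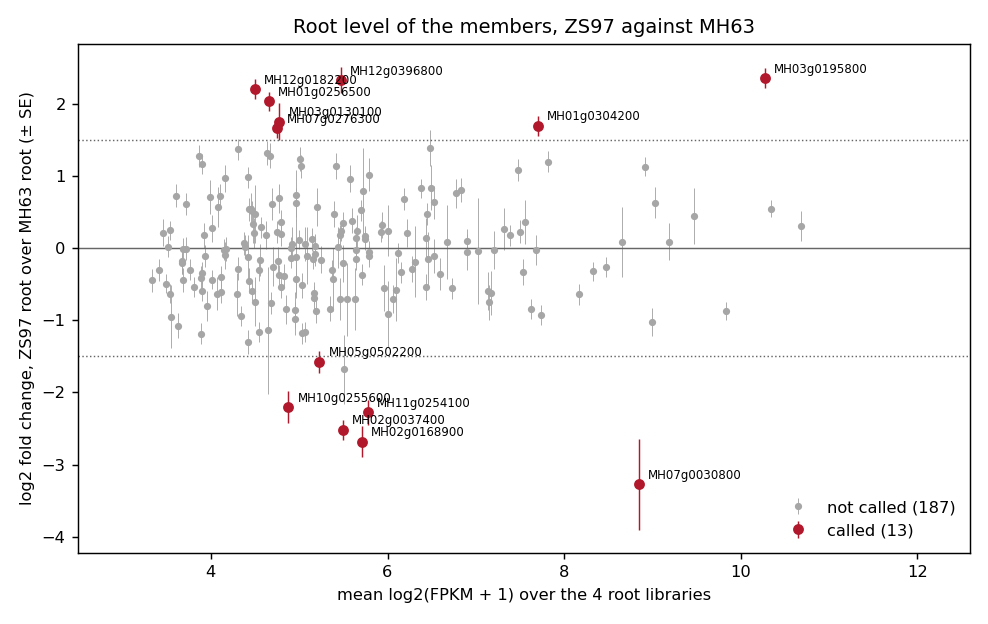
Log2 fold change of ZS97 root over MH63 root with its standard error (vertical axis) against the mean log2(FPKM + 1) of the 4 root libraries (horizontal axis) for 200 members. Red points are the 13 called members, grey points the other 187, and dotted lines mark 1.5 in either direction. MH07g0030800 is the lowest point at -3.28 and has a wide error of 0.63.

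Nip was set beside the other varieties without a test, because of the separate column numbering of its files. Nip was the highest variety in root for 100 members, MH63 for 58 and ZS97 for 42, whereas Nip was the highest for 30.9% of all genes above 1 FPKM in root. The 2 Nip root libraries lay above all 4 root libraries of ZS97 and MH63 in 92 members and below all of them in 44, together 136 members (68.0%). Among all 20811 genes above 1 FPKM in root of any variety, percent called by this rule was 59.2%, with 22% above and 37.3% below. As deposited, members thus lay above more often than below, and genes overall below more often than above. After quantile normalization of the 6 root libraries, 90 members lay above and 42 below, while 6211 genes lay above and 5401 below. The direction over all genes thus depended on the scaling. Members needed a high root score in every variety including Nip, whereas genes overall needed a mean above 1 FPKM in root of any 1. The part of this rule in the difference was not tested.

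As deposited, the median log2 difference of Nip root from the mean of ZS97 and MH63 root was 0.21 over members and -0.17 over all those genes. MH09g0312900 stood out on the high side, with 861 and 857 FPKM in Nip root, against 100 and 104 FPKM in ZS97 root and 65.9 and 81.2 FPKM in MH63 root. This is 3.29 on the log2 scale. MH02g0088500, given above, followed with 3.16, and MH04g0536300 with 2.95, at 191.6 and 203.3 FPKM in Nip root, against 18.5 and 18.9 FPKM in ZS97 root and 29.6 and 35.1 FPKM in MH63 root. On the low side, MH07g0284000 had 61.9 and 61.5 FPKM in Nip root, against 746 and 680 FPKM in ZS97 root and 313 and 337 FPKM in MH63 root (-2.94). MH01g0447900 had 15.2 and 14.6 FPKM in Nip root, against 51.4 and 51.6 FPKM in ZS97 root and 68.9 and 103 FPKM in MH63 root (-2.09), and MH10g0320800 was next at -1.85. These differences were larger than the gap between the replicates of any 1 variety, which was widest for MH01g0447900 in MH63. Nip is a *japonica* variety whose values are listed on MH63 genes.

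Outside root, the members were listed at low values. A mean above 1 FPKM was reached in young leaf by 34 members in Nip, 27 in ZS97 and 34 in MH63, in panicle by 22, 14 and 17 members in the same order, and in mature leaf by 21, 15 and 16. In panicle, 84 members were listed at 0 in both libraries in Nip, 120 in ZS97 and 97 in MH63. The highest of the 18 values was 1 FPKM or less for 118 members and 5 FPKM or less for 172, and 15 members were listed at 0 in all 18 libraries. MH10g0320800 had the highest root level of those 15, with 102 and 94.4 FPKM in Nip root, 337 and 312 FPKM in ZS97 root and 359 and 420 FPKM in MH63 root. At the other end, 11 members exceeded 10 FPKM in at least 1 library outside root.

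Young leaf was the most frequent second tissue. It held the highest mean outside root for 66 members in Nip, 82 in ZS97 and 90 in MH63, followed by panicle with 60, 39 and 45 and mature leaf with 35, 19 and 21. The rest were listed at 0 in the 3 other tissues of the variety, 39 in Nip, 60 in ZS97 and 44 in MH63. The second tissue was the same in all 3 varieties for 52 members, with young leaf for 36, panicle for 12 and mature leaf for 4. Most of these highest means were at or below 1 FPKM, so small differences between low values often set the second tissue. In ZS97, the mature leaf files were numbered apart from those of young leaf and panicle. Mature leaf libraries had the lowest median relative depth, 0.281, and the part of depth in these counts was not tested.

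The rule did not use differences among the other 3 tissues beyond their maximum, and these were tested with limma in 1 fit of the 8 libraries of each variety. Panicle differed from young leaf in 18 members in Nip (5 higher and 13 lower in panicle), in 14 in ZS97 (2 higher and 12 lower) and in 14 in MH63 (3 higher and 11 lower). Percent called over all tested genes was 26.2% in Nip, 26.8% in ZS97 and 27.1% in MH63, and 9%, 7% and 7% of members were called. Higher in panicle were 11.5%, 9.58% and 8.9% of all tested genes and lower 14.7%, 17.3% and 18.2%, in the order of Nip, ZS97 and MH63. A gene with means at or below 1 FPKM in both tissues cannot reach the fold change cutoff on this scale, and most members were such genes. All 200 members entered these fits through their root level, and the rule held their other tissues low, so nothing is read from their share beside that of all genes, here or in the contrasts with mature leaf. With a pseudocount of 0.1, the counts were 42 members in Nip, 42 in ZS97 and 46 in MH63, beside 34.2%, 34% and 35.2% of all tested genes. With quantile normalization, MH63 had 5 higher and 8 lower members. The median of all genes in MH63 was then 0.16, against -0.06 as deposited. Without MH63 young leaf replicate 1, the count in MH63 was 24.

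A group of 8 members was lower in panicle than in young leaf in all 3 varieties, of 18 that were lower in at least 1. No member was higher in panicle in all 3 varieties, of 7 that were higher in at least 1. Of the 20169 genes tested in all 3 varieties, 11.4% were lower in all 3 and 23.7% in at least 1, and 6.45% were higher in all 3 and 15.7% in at least 1. MH03g0271100 showed the largest decrease in MH63. It had 0.176 and 0.255 FPKM in Nip panicle, against 10.1 and 16.2 FPKM in Nip young leaf. It was listed at 0 in both ZS97 panicle libraries, against 8.24 and 9.07 FPKM in ZS97 young leaf, and at 0 in both MH63 panicle libraries, against 8.94 and 13.7 FPKM in MH63 young leaf. The log2 fold changes were -3.51 ± 0.21 in Nip, -3.27 ± 0.16 in ZS97 and -3.59 ± 0.23 in MH63 (SE, limma adjusted p between 3.37e-05 and 7.48e-05). Its root level was 332 and 351 FPKM in Nip, 162 and 167 FPKM in ZS97 and 210 and 204 FPKM in MH63.

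MH02g0513900 behaved likewise. It had 0.328 and 0.236 FPKM in Nip panicle, against 3.43 and 13.1 FPKM in Nip young leaf. In ZS97, it was listed at 0 in both panicle libraries, against 8.42 and 9.80 FPKM in young leaf. In MH63, it had 0.0707 and 0 FPKM in panicle, against 7.59 and 14.0 FPKM in young leaf. The log2 fold changes were -2.62 ± 0.51 in Nip, -3.33 ± 0.16 in ZS97 and -3.45 ± 0.31 in MH63 (SE, limma adjusted p between 3.35e-05 and 0.00457). The Nip young leaf libraries were far apart, and the lower one still exceeded both panicle libraries. MH11g0547900, the member most even in root, was also lower in panicle, by -2.88 in Nip, -3.32 in ZS97 and -2.97 in MH63. It had 1.16 and 0.281 FPKM in Nip panicle, against 8.46 and 14.9 FPKM in Nip young leaf, and was listed at 0 in the 4 panicle libraries of ZS97 and MH63.

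MH07g0030800 showed the largest decrease of all in Nip. It had 0 and 0.423 FPKM in Nip panicle, against 25.7 and 29.2 FPKM in Nip young leaf (-4.57 ± 0.20, limma adjusted p = 1.24e-05). In ZS97 and MH63, it was listed at 0 in all 4 panicle libraries, against 0.469 and 0.711 FPKM in ZS97 young leaf and 0.211 and 5.84 FPKM in MH63 young leaf, and was not called. Young leaf levels above 5 FPKM were thus found in both Nip libraries and in 1 MH63 library. In the interaction contrasts given below, the gene was not called for Nip or ZS97 against MH63. Nip was not tested against ZS97.

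Of the members higher in panicle, MH10g0419800 had 18.9 and 14.2 FPKM in Nip panicle, against 0.377 and 1.44 FPKM in Nip young leaf (3.25 ± 0.28, limma adjusted p = 0.00013). In MH63, it had 6.86 and 4.79 FPKM in panicle, against 0.688 and 1.10 FPKM in young leaf (1.84 ± 0.22, limma adjusted p = 0.000743). In ZS97, with 1.03 and 1.50 FPKM in panicle, against 0.573 and 2.14 FPKM in young leaf, the libraries overlapped. Its root level followed the same order, with 244 and 263 FPKM in Nip, 52.1 and 49.3 FPKM in ZS97 and 76.5 and 72.6 FPKM in MH63. MH11g0254100 was higher in panicle in MH63, with 6.90 and 5.47 FPKM, against 0.197 and 0.364 FPKM in young leaf (2.48 ± 0.19, limma adjusted p = 0.000125). It was at or below 0.366 FPKM in panicle and young leaf of Nip and ZS97. MH01g0756500 was called higher in panicle in ZS97, with 1.12 and 5.74 FPKM, and was listed at 0 in ZS97 young leaf (1.92 ± 0.50, limma adjusted p = 0.0194). This call was lost without either ZS97 young leaf library (adjusted p = 0.0808 and 0.0859) and without ZS97 panicle replicate 2, where the log2 fold change was 1.08. In MH63, the gene was also called (1.92 ± 0.19, limma adjusted p = 0.000359), with 3.26 and 3.02 FPKM in panicle, against 0.186 and 0 FPKM in young leaf.

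**Figure D4:**
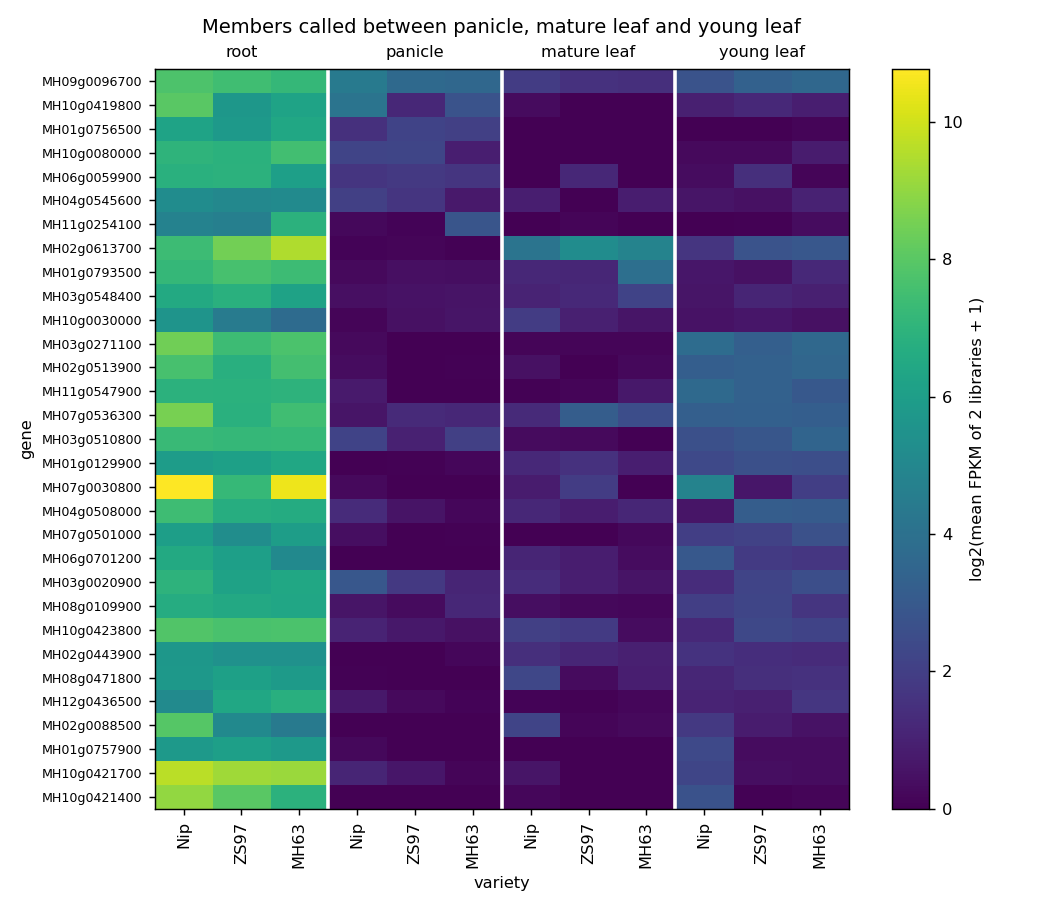
Log2(mean FPKM + 1) of the 31 members called in at least 1 contrast among panicle, mature leaf and young leaf, with 1 column per tissue and variety (mean of 2 libraries) and 1 row per gene, ordered by the highest tissue outside root. Root columns are the brightest in each row. MH02g0613700 is the brightest row in mature leaf and MH03g0271100 one of the brightest in young leaf.

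Panicle differed from mature leaf in 10 members in Nip (6 higher and 4 lower in panicle) and in 9 in MH63 (6 higher and 3 lower). Percent called over all tested genes was 32.3% in Nip (16.3% higher and 16% lower) and 37.5% in MH63 (18.9% higher and 18.6% lower). With quantile normalization, Nip had 5 higher and 6 lower members. With a pseudocount of 0.1, the counts were 45 members in Nip and 34 in MH63, beside 41.4% and 47.2% of all tested genes. The contrast was not made in ZS97, whose mature leaf files were numbered with those of Nip. Higher in panicle in both Nip and MH63 were 4 members, and lower in both was 1, MH02g0613700, beside 13.9% and 14.4% of the 20845 genes tested in both varieties. This gene had 0.149 and 0 FPKM in Nip panicle, against 16.5 and 16.7 FPKM in Nip mature leaf (-4.04 ± 0.13, limma adjusted p = 1.99e-06). In MH63, it had 0.0519 and 0.0400 FPKM in panicle, against 33.6 and 21.1 FPKM in mature leaf (-4.73 ± 0.22, limma adjusted p = 9.66e-06). Its values in ZS97 mature leaf, 38.1 and 35.7 FPKM, were the highest of any member outside root. It still reached 162.5 and 169.03 FPKM in Nip root, 351 and 360 FPKM in ZS97 root and 755 and 693 FPKM in MH63 root.

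Mature leaf differed from young leaf in 13 members in Nip (1 higher and 12 lower in mature leaf) and in 12 in MH63 (1 higher and 11 lower). Percent called was 20% in Nip (8.8% higher and 11.2% lower) and 22.5% in MH63 (7.86% higher and 14.6% lower). Without MH63 young leaf replicate 1, the count in MH63 was 21. With a pseudocount of 0.1, the counts were 36 members in Nip and 45 in MH63, beside 28.1% and 31% of all tested genes. Of the genes tested in both varieties, 5.79% were higher and 8.09% lower in both. MH02g0613700 was the member that was higher in mature leaf in both varieties, at 2.48 ± 0.13 in Nip, with 1.94 and 2.41 FPKM in young leaf, and 1.86 ± 0.22 in MH63, with 6.72 and 6.57 FPKM in young leaf (SE, limma adjusted p = 2.68e-05 and 0.000931). Of the members that were lower in mature leaf, 5 were shared by Nip and MH63, and the largest shift among these was that of MH03g0271100 (-3.65 ± 0.21 in Nip and -3.46 ± 0.23 in MH63, limma adjusted p = 3.52e-05 and 0.000114). With quantile normalization, the split was 2 higher and 9 lower in Nip and 4 higher and 5 lower in MH63.

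In all, 31 members were called in at least 1 of the 7 contrasts among panicle, mature leaf and young leaf, beside 57.7% of the genes tested in all of them. The called members had a median root level of 100.1 FPKM and a median highest value outside root of 6.12 FPKM, against 35.1 and 0.50 FPKM for the others. The fold change cutoff requires a higher value outside root, and the score then requires a higher root level. Both differences thus follow closely from the cutoff and the rule. Contrasts of the same variety share libraries and are not independent of each other.

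The change from young leaf to panicle was also compared between varieties by interaction contrasts in limma. Nip differed from MH63 in 9 members (6 more positive and 3 more negative in Nip), against percent called of 7.9% over all tested genes (5.81% and 2.09%). After quantile normalization, 2 members were more positive and 6 more negative in Nip, so the balance of the calls between directions depended on the scaling. The count was 18 without MH63 young leaf replicate 1. ZS97 differed from MH63 in 2 members (1 in each direction), against 1.63% (1.01% and 0.617%). The called members were 4.5% of members for Nip and 1% for ZS97. All 200 members entered these fits through their root level, and the rule held their panicle and young leaf levels low. Nothing is therefore read from their share beside that of all genes. With a pseudocount of 0.1, the counts were 21 and 5 members, beside 9.74% and 1.76% of all tested genes. MH11g0254100 was in both sets, and panicle was called higher than young leaf in MH63 alone.

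Members lay close to each other in the order of gene identifiers, which follows the chromosomes in the numbering of the files. Of the 200 members, 21 (10.5%) were listed directly next to another member and 44 (22%) had one within 5 listed genes. Among the other genes above 1 FPKM in root, a member was next to 0.927% and within 5 listed genes of 4.08%. This difference was not tested, because neighbouring genes are not independent. There were 10 runs of neighbouring members, 9 of 2 genes and 1 of 3, and 5 blocks held 3 or more members. By the chromosome in the identifier, 25 members (12.5%) were on chromosome 10, against 5.28% of the 20811 genes above 1 FPKM in root of any variety, and 24 (12%) on chromosome 7, against 7.66%. These were the largest excesses of all chromosomes, and they include blocks described below. Chromosome 2 held the most members, 29 (14.5%), against 11.8% of those genes. Chromosome 1 held 28 members (14.0%), near its share of 14.2%. The remaining chromosomes held less than their share, as chromosome 5 with 5% against 8.26% and chromosome 6 with 4.5% against 8.37%.

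The largest block comprised 10 listed genes between MH10g0320500 and MH10g0321400, 5 of them members. Root means of these 5 ranged between 11.7 and 98.1 FPKM in Nip, 16.4 and 325 FPKM in ZS97 and 8.98 and 389 FPKM in MH63. A gene between them, MH10g0320700, had a like root mean of 33.6 FPKM over the 6 root libraries but reached 34.2 FPKM outside root and was not a member. The block from MH07g0012900 to MH07g0013300 held 4 members among 5 listed genes, and the gene between the pairs, MH07g0013100, was listed at 0 in all root libraries. The members of a block did not share 1 order of varieties. MH12g0394200 had the highest root mean of any block member, and MH12g0394100, listed beside it, had 15.8 FPKM in Nip root, 48.9 FPKM in ZS97 root and 20.0 FPKM in MH63 root.

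The run of 3 neighbours, MH09g0388900, MH09g0389000 and MH09g0389100, had wide gaps between root replicates. MH09g0388900 had 9.99 and 15.8 FPKM in Nip root, 31.1 and 7.92 FPKM in ZS97 root and 28.5 and 46.1 FPKM in MH63 root. MH09g0389000 had 10.5 and 6.88 FPKM in Nip root, 4.27 and 12.4 FPKM in ZS97 root and 19.5 and 11.8 FPKM in MH63 root. The replicate that was high for one of these genes was low for the other in all 3 varieties. MH09g0389100 had 31.7 and 19.3 FPKM in Nip root, 30.9 and 40.9 FPKM in ZS97 root and 88.7 and 38.6 FPKM in MH63 root. Outside root, all 3 genes were listed at 0 except in MH63 panicle replicate 1, with 6.54, 0.737 and 1.92 FPKM. Whether these neighbours are alike in sequence and share reads was not tested, and their levels are given as uncertain.

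**Figure D5:**
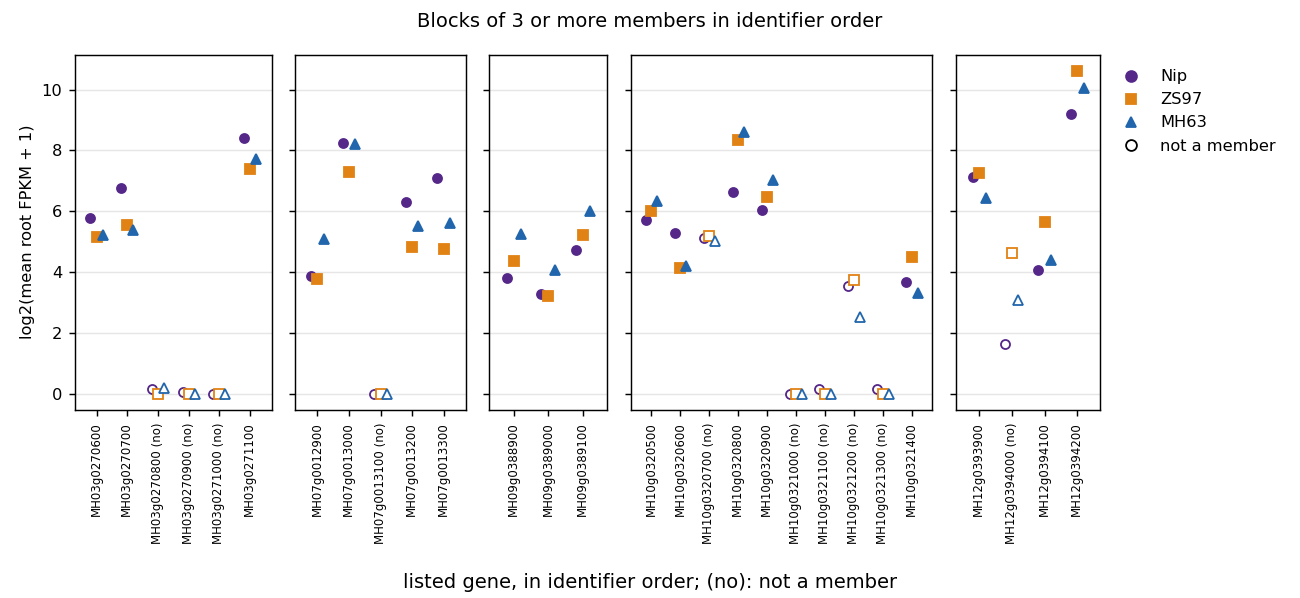
Root level of the 5 blocks with 3 or more members, as log2(mean FPKM of 2 root libraries + 1) on the vertical axis, with listed genes in identifier order on the horizontal axis and 1 point per variety. Filled points are members and open points, marked (no), are genes between them. In the block on chromosome 10, the member with the highest level, MH10g0320800, had 98.1 FPKM in Nip, 325 FPKM in ZS97 and 389 FPKM in MH63.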

How the data were processed

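RNA-Seq values were taken from 24 deposited files, 1 per library. The authors trimmed reads with Trimmomatic, mapped them with TopHat2 to the MH63 or ZS97 genome and quantified genes with Cufflinks (2.2.5 in the submitters' processing notes), and deposited FPKM by MH63 gene identifier. Which genome served Nip and the counting settings are not given in the sources used here. Value columns were numbered as 14 libraries (MH63, and root, young leaf and panicle of ZS97) and 10 libraries (Nip and ZS97 mature leaf). This was taken as 2 quantifications, an inference from the headers alone, so Nip root was not tested against the others and ZS97 mature leaf entered fits but no contrast. Reads that differ from the MH63 gene models may have been lost in ZS97 and Nip.

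FPKM are not counts. They were tested with limma (3.58.1, R 4.3.3) as log2(FPKM + 1), with lmFit and eBayes with trend, two-sided, on genes whose mean exceeded 1 FPKM in any group of the fit, and p-values were adjusted over all of them. Root of ZS97 against MH63 used the 12 root, young leaf and panicle libraries of both varieties, and tissue contrasts all 8 libraries of a variety and interactions the 12 root, young leaf and panicle libraries of 2 varieties. With 2 libraries in each group, exact permutation of single genes gives no p under 0.333. Fold changes understate changes of low genes. Fits and depth estimates were tested on simulated data. Identical files were not found. Python 3.11.15, numpy 2.4.6 and pandas 2.3.3 served for the rest.

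Genes named were the members ranked first by score, those with the highest root level, those at the edge of the list, the largest changes each way and neighbouring runs. Genes of the blocks, MH11g0547900 as the most even member, and the chromosomes were named after their values were seen. The members and this rule were chosen with earlier results of these data known. Root marker lists were not used, since identifiers could not be paired with symbols. Alternatives were another pseudocount, no filter, quantile normalization, a replicate block, a lower fold change cutoff and leaving out each library.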

Additional observations from a re-analysis of the deposited data

Results flagged for a closer look

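The change from young leaf to panicle differed between varieties in several members, by the interaction contrasts in limma. Between Nip and MH63, 9 members passed the cutoffs (6 with a more positive change in Nip and 3 with a more negative one), against 7.9% of 24571 tested genes. The median of all genes in this contrast was 0.14 as deposited and -0.04 after quantile normalization, under which 2 members were more positive and 6 more negative in Nip. The files of Nip and MH63 have separate column numberings, and the contrast is a difference between changes within varieties. Members entered the interaction fits through their root level, so nothing is read from their share of calls beside that of all genes.

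The largest interaction was that of MH04g0508000 at 3.46 (limma adjusted p = 0.00464). It had 1.76 and 1.20 FPKM in Nip panicle, against 0.757 and 0.320 FPKM in Nip young leaf, and 0.113 and 0.146 FPKM in MH63 panicle, against 3.75 and 11.3 FPKM in MH63 young leaf. MH03g0020900 followed at 2.86 (limma adjusted p = 0.0141), with 8.18 and 4.99 FPKM in Nip panicle, against 1.45 and 1.66 FPKM in Nip young leaf, and 1.09 and 1.19 FPKM in MH63 panicle, against 2.18 and 7.98 FPKM in MH63 young leaf. Its call was lost without either MH63 panicle library or without Nip panicle replicate 1 (adjusted p between 0.0506 and 0.0594). The 2 MH63 young leaf libraries differed widely in both genes, replicate 2 being the higher.

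In the other direction, MH10g0421400 had -2.56 (limma adjusted p = 0.00031). It was listed at 0 in Nip and MH63 panicle, against 4.91 and 6.08 FPKM in Nip young leaf and 0 and 0.203 FPKM in MH63 young leaf. MH11g0254100 had -2.26 between Nip and MH63 (limma adjusted p = 0.00151; 0.0599 with a pseudocount of 0.1) and -2.43 between ZS97 and MH63 (limma adjusted p = 0.00191), so both tests rest on the same MH63 libraries, in which panicle was high. MH01g0757900 had -1.80 (limma adjusted p = 0.0112), and was -1.45 and not called without Nip young leaf replicate 2.

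Smaller interactions between Nip and MH63 were 1.72 for MH02g0692300 (1.31 and not called after quantile normalization), 1.58 for MH09g0096700, 1.57 for MH01g0413400 and 1.56 for MH10g0423800 (limma adjusted p between 0.0025 and 0.047). Between ZS97 and MH63, 2 members passed, against 1.63% of 23841 tested genes. The second was MH02g0168900 at 1.54 (limma adjusted p = 0.0394). It was at or below 1.61 FPKM in panicle and young leaf of both varieties, and its call was lost without a filter, after quantile normalization and without any 1 of 7 of the 8 libraries.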

How the results depend on the processing

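With a pseudocount of 0.1, the members called were 42, 42 and 46 for panicle against young leaf in Nip, ZS97 and MH63, 45 and 34 for panicle against mature leaf in Nip and MH63, 36 and 45 for mature leaf against young leaf, and 21 and 5 for the interactions of Nip and ZS97 with MH63. With a log2 fold change above 1, they were 33 in root, 22 for panicle against young leaf in MH63, 19 for panicle against mature leaf and 22 for mature leaf against young leaf in Nip, and 17 for the Nip interaction. The ZS97 interaction gave 1 member without a filter and 1 after quantile normalization, which was more negative in ZS97. Quantile normalization moved the median of all genes by over 0.1 also for panicle against young leaf in ZS97 (to 0.13, against -0.03) and for mature leaf against young leaf in MH63 (to 0, against -0.16). Leaving out 1 library gave 12 to 13 members in root, 15 to 18 in Nip, 12 to 16 in ZS97 and 14 to 24 in MH63 for panicle against young leaf, 9 to 15 in Nip and 7 to 12 in MH63 for panicle against mature leaf, 12 to 17 in Nip and 11 to 21 in MH63 for mature leaf against young leaf, 6 to 18 for the Nip interaction (18 without MH63 young leaf replicate 1) and 1 to 3 for the ZS97 interaction. A neighbour within 5 listed genes was found for 44 members. Of the 200 members, a rule with a pseudocount of 0.1 kept 141, the mean score over varieties 167, quantile normalization 188, replicate 2 alone 186 and replicate 1 alone 180. In fits with a replicate block, the counts of calls were those reported (13 in root, 18, 14 and 14 for panicle against young leaf in Nip, ZS97 and MH63, and 9 and 2 for the interactions). The deviations of same-numbered libraries correlated at 0.51 between young leaf of ZS97 and of MH63, and between -0.18 and 0.09 in all other pairs. Both young leaf groups enter the ZS97 interaction. The labels name no shared source, so the replicate numbers were not used to pair libraries. Single-gene values were followed for at most the 3 largest called changes each way in each contrast, picked from the same data. Across the alternatives, 465 of these values kept their call, 32 lost it and 0 reversed. The cause of these changes was not tested.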

Other observations

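Some genes passed the lowest member score in 2 of the 3 varieties only. The third variety was Nip for 80 genes, ZS97 for 37 and MH63 for 36. Most of them were still expressed in root of the variety in which the score was lower. Among the 80 genes, 9 had a mean of 1 FPKM or less in Nip root and 3 were listed at 0 in both Nip root libraries, against 1 and 0 genes for ZS97 and 0 and 0 for MH63. The median root level in that variety was 9.21 FPKM in Nip, 12.1 FPKM in ZS97 and 10.7 FPKM in MH63. These genes were chosen by the same values, so the counts are a description. The Nip files have a separate column numbering, and Nip values are listed on MH63 genes. The part of either in the counts for Nip was not tested.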
